A study of Mus musculus with 21 samples.

Results

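The genes examined encode 9 proteins through which the lining of blood vessels, the endothelium, sets vascular tone: endothelin 1 (Edn1), its converting enzyme (Ece1) and its B receptor (Ednrb); the endothelial nitric oxide synthase (Nos3); adrenomedullin (Adm) and the 2 subunits of its receptor (Calcrl and Ramp2); and the prostaglandin-forming cyclooxygenases (Ptgs1 and Ptgs2). They were picked out by gene name, and all 9 were found among the 24206 gene names used. Levels are given in RPKM as deposited by the authors, that is, read numbers divided by gene length and by library size, for endothelial cells sorted from mouse brain.

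All mice were C57BL/6 adults of 12 to 20 weeks, and the sort took live cells with CD31, an endothelial protein, and without the leukocyte protein CD45 or the pericyte protein PDGFRb. In the stroke experiment the middle cerebral artery was occluded for 1 h and reperfused for 1 d, and cells came from the stroke hemisphere (ST) or the non-stroke hemisphere (NS). Cko mice were Gpr124 flox/-; ROSA-CreER+, and the groups Cko-ST and Cko-NS held 4 libraries each. WT mice of this experiment were Gpr124 flox/+; ROSA-CreER+, and WT-ST and WT-NS also held 4 libraries each. Gpr124 encodes an adhesion receptor that takes part in Wnt signalling in brain endothelium. All 4 groups therefore carried the ROSA-CreER recombinase, whose locus is active in many cell types and not only in endothelium, the WT animals had a floxed allele, and the NS hemispheres came from animals with a stroke on the other side. In the separate beta-catenin experiment, without stroke, 3 Bcat libraries came from Ctnnb1 lox(ex3)/+; Cdh5-CreER+ mice and 2 WT libraries from Ctnnb1 +/+; Cdh5-CreER+ mice. The lox(ex3) allele yields a stabilised beta-catenin, and Cdh5-CreER acts in endothelial cells.

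Endothelial cells release opposing signals to the muscle layer of the vessel wall. Endothelin 1 is made as a large precursor, is cut by Ece1 and constricts vessels through receptors on muscle, while Ednrb on endothelium clears the peptide and couples it to the release of nitric oxide and prostacyclin. Nitric oxide made by Nos3 and adrenomedullin relax vessels, adrenomedullin by way of Calcrl paired with Ramp2, and Ptgs1 and Ptgs2 make the precursor from which prostacyclin, prostaglandin E2 and thromboxane are formed.

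The stroke libraries were made from the 3' ends of polyadenylated transcripts and held an estimated 4.73 to 19.7 M reads. Total RNA and a different kit were used for the beta-catenin libraries, and values were compared only within each experiment, apart from the ratio of Nos3 to Atg9b. Because tags from 3' ends do not grow with transcript length, RPKM does not rank different genes in the stroke libraries. Levels of different genes were set side by side there only in that ratio and in the sums of markers. All 8 endothelial markers averaged at least 1 RPKM in every group. Gpr124 averaged 1.37 ± 0.585 RPKM in Cko-ST and 2.76 ± 1.65 RPKM in Cko-NS, against 4.99 ± 2.52 RPKM in WT-ST and 4.49 ± 2.25 RPKM in WT-NS (SD, n = 4 each), and neither genotype difference passed the test (log2 fold change -1.28, adjusted p = 0.765, for Cko-ST against WT-ST, and -0.57, adjusted p = 0.533, for Cko-NS against WT-NS; limma); tags from the 3' end check a deletion elsewhere in the gene only in part. Sex-linked RNA went against the label in 2 libraries. Cko-NS 4, labelled female, had 1.48 RPKM of Xist and 189 RPKM summed over 4 Y-linked genes, and Cko-ST 3, labelled male, had 89.7 RPKM of Xist and 0.423 RPKM of those genes. Cko-ST 4, the other library labelled male in the stroke experiment, had 249 RPKM of the Y-linked genes. All WT-ST and WT-NS libraries were labelled female and had 111 to 176 RPKM of Xist. By this RNA Cko-NS 4 and Cko-ST 4 were the only male stroke libraries, so sex was in part confounded with genotype. The fit without Cko-NS 4 and Cko-ST 4 leaves them out. Fits without both libraries labelled male leave out Cko-ST 3 and Cko-ST 4 and keep Cko-NS 4. Calls of members that change without Cko-NS 4, Cko-ST 3 or Cko-ST 4 are given with and without them. For other pathway genes, some such changes are given only through the highest adjusted p over all alternatives.

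Endothelin 1 and Ptgs2 rose by 3.70- to 4.97-fold in the stroke hemisphere, the only members to pass in both genotypes in the main fit. With a replicate block, a term for libraries of the same number, Adm also passed in both. Of the 8 members tested, 4 rose in WT-ST against WT-NS (Edn1, Ece1, Nos3 and Ptgs2) and 0 fell, where 13.3% of all 9826 genes passed the threshold, 8.47% upwards and 4.84% downwards (adjusted p under 0.05, limma with Benjamini-Hochberg adjustment over all genes). In Cko-ST against Cko-NS, 4 members rose (Edn1, Ptgs2, Adm and Calcrl) and 1 fell (Ramp2), where 15.2% of all genes passed, 6.44% upwards and 8.72% downwards. The median log2 fold change of the 8 members was 1.05 in WT mice, against 0.01 over all genes, and 0.78 in Cko mice, against -0.13 over all genes. In Cko mice that general shift shrank to -0.01 under median-of-ratios scaling, which changed the split of all called genes to 866 higher and 603 lower, against 633 higher and 857 lower in the deposited scaling (744 and 664 under quantile normalisation), and left the direction of all 8 members as it was. The ninth member, Ptgs1, averaged under 1 RPKM and was examined apart. The members were not tested as a set against other genes.

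**Figure D1:**
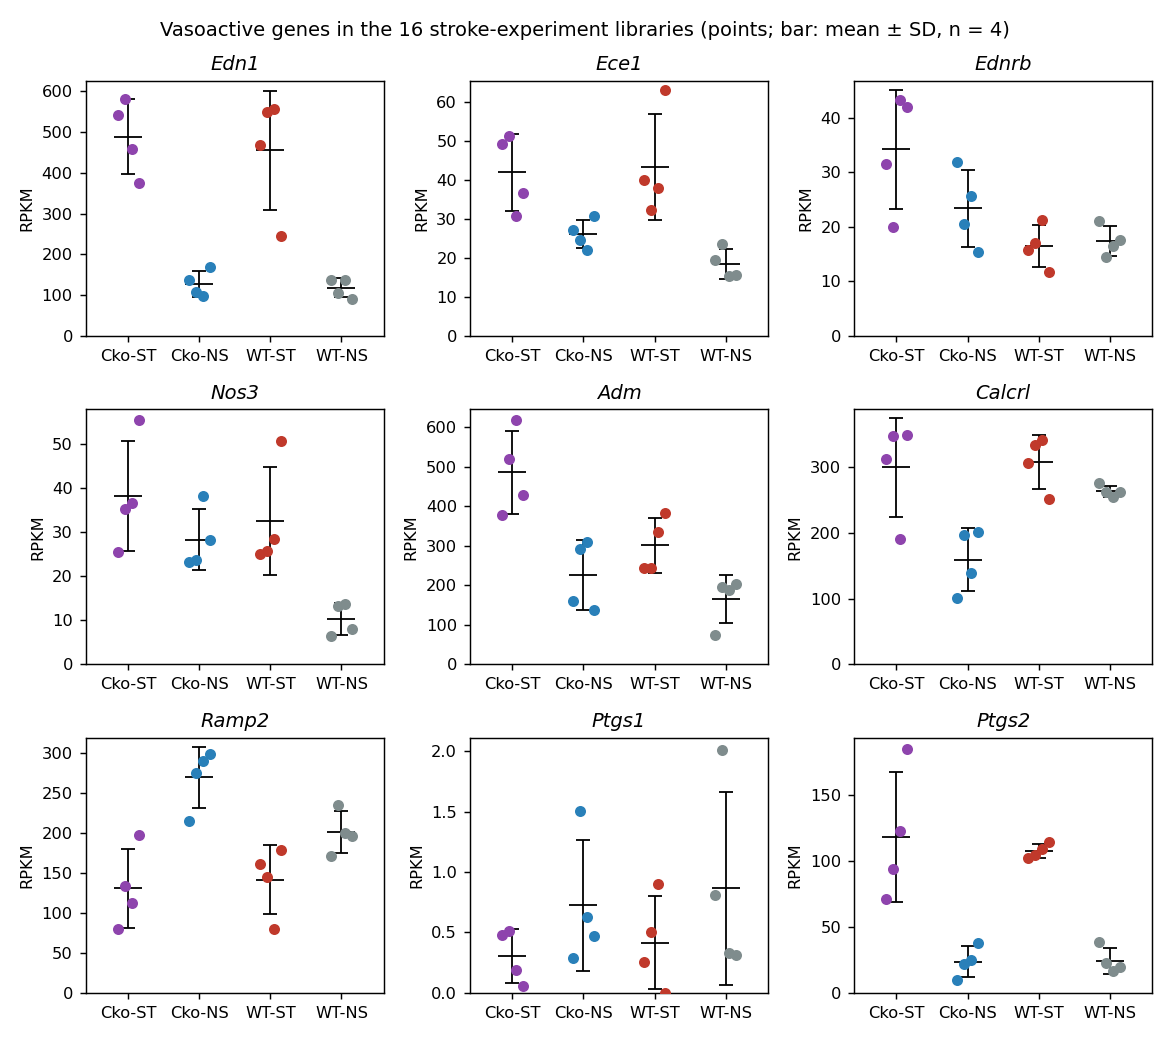
RPKM of the 9 vasoactive genes in each of the 16 stroke-experiment libraries (points) by group, with the mean and SD of 4 libraries as bars. Edn1 and Ptgs2 in both ST groups lie above all NS libraries of their genotype, while Ramp2 in Cko-ST lies below all Cko-NS libraries.

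**Figure D2:**
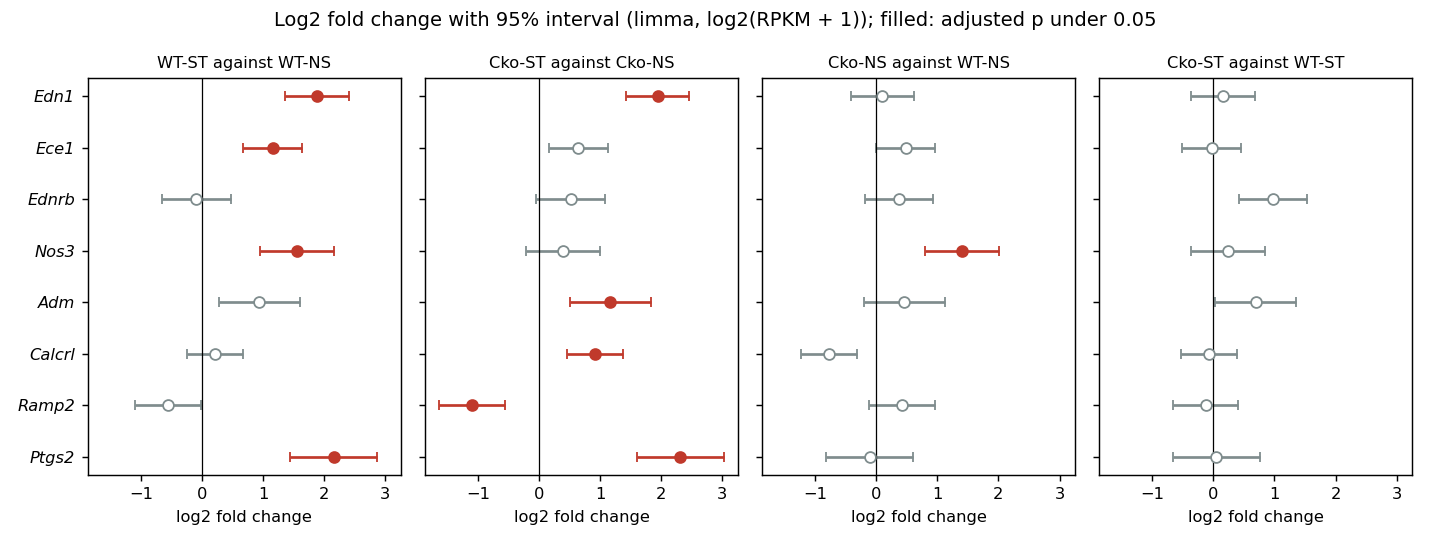
Log2 fold changes (x axis) of the 8 members tested in the stroke libraries, with 95% intervals, for both stroke comparisons and both genotype comparisons. Filled points passed an adjusted p of 0.05. They are Edn1, Ece1, Nos3 and Ptgs2 in WT mice, Edn1, Adm, Calcrl, Ramp2 and Ptgs2 in Cko mice, and Nos3 between the NS hemispheres.

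The promoters of 3 members are shown as examples: those of Edn1 and Ptgs2, which rose with stroke in both genotypes, and that of Adm, the other peptide precursor, which passed the threshold upwards in Cko mice. Each sequence is the RefSeq window of 300 bases on build GRCm38.p6, which holds 250 bases before the transcript's start and 50 from it onwards, written 5' to 3' along the gene's plus strand. RefSeq windows were found for 7 of the 9 members. Capitals mark matches to motifs, which were searched on both strands. The core of hypoxia response elements was taken as ACGTG and the core of cAMP response elements as TGACG. The GATA motif was taken as AGATAA. The other motifs searched were a TATA box, the site of the TCF and LEF factors that act with beta-catenin, and the sites of AP-1, NF-kB and STAT factors. Their shares stand below the sequences, with the letters of all but the NF-kB site, a motif of 10 letters that is given by name alone. The windows lie at chr13:42301226-42301525 for Edn1, chr1:150099781-150100080 for Ptgs2 and chr7:110627407-110627706 for Adm.
Edn1: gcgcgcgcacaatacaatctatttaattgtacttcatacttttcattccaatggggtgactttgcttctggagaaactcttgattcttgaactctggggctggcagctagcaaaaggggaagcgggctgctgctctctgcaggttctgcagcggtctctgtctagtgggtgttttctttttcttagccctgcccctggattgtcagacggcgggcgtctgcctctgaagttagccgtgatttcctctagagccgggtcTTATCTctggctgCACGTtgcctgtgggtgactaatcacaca
Ptgs2: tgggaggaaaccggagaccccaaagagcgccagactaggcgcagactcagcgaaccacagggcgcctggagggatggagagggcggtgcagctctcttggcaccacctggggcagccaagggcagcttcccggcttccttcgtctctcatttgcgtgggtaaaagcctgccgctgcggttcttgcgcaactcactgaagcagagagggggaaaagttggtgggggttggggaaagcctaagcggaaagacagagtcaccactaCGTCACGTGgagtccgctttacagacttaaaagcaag
Adm: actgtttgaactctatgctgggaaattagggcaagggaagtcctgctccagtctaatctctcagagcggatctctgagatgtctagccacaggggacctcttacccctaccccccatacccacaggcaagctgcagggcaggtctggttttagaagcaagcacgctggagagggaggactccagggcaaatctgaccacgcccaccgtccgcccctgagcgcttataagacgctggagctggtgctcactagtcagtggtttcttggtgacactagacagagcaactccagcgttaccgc
Counted from the first base printed, the Edn1 window held the GATA motif on the other strand, read as TTATCT, at position 259. It also held the hypoxia core on the other strand, read as CACGT, at position 272. In the Ptgs2 window the cAMP core on the other strand began at position 264 and overlapped the hypoxia core. The hypoxia core was read on both strands, from positions 267 and 268, within 1 stretch, CACGTG, that reads the same on either strand. All matches in the Edn1 and Ptgs2 windows lay in the 50 bases from the transcript's start onwards. The Adm window held none of the 8 motifs. Of the members that passed the threshold upwards in a single genotype and are not printed, Calcrl held none of the motifs either. Ece1 had several windows, and only that at chr4:137913308-137913607 held the hypoxia core, again as CACGTG read on both strands. The windows at the start of the annotated Ece1 gene held none of the motifs. Of 32851 RefSeq windows of this length, 19.6% held the hypoxia core, 20.8% held the cAMP core and 11.2% held the GATA motif, so such matches are common. The TATA box, searched as TATAAA, was found in 13.6% of windows. The TCF and LEF site, searched as CTTTGAT, was found in 3.73%. The AP-1 site, searched as TGANTCA, was found in 7.81%, and the STAT site, searched as TTCNNNGAA, in 8.3%. The NF-kB site was found in 4.51%.

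Edn1, the constrictor peptide (chromosome 13, 42301476 to 42307990, plus strand, GRCm38), rose with stroke in both genotypes. Its level was 467, 549, 557 and 246 RPKM in WT-ST libraries 1 to 4, against 138, 106, 138 and 90.9 RPKM in WT-NS libraries 1 to 4. It was 543, 579.9, 459 and 374 RPKM in Cko-ST, against 138, 107, 97.3 and 168 RPKM in Cko-NS. Every ST library lay above every NS library of its genotype, with WT-ST 4 the lowest of the 8. The log2 fold change was 1.89 ± 0.25 (SE; 3.70-fold; adjusted p = 5.89e-05) in WT mice and 1.94 ± 0.25 (3.84-fold; adjusted p = 4.88e-05) in Cko mice. In bulk samples like these, a change in the number of cells of a type and a change in the RNA per cell cannot be told apart. Groups without overlap in the WT comparison were found for 20.6% of all genes (11.9% with ST higher), and for 5 of the 8 members (Edn1, Ece1, Nos3, Adm and Ptgs2, all with ST higher). In the Cko comparison they were found for 18.8% of genes, and for 5 of the 8 members, of which 4 had ST higher (7.39% of genes) and 1 had ST lower (11.4% of genes).

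Ece1, the protease that releases active endothelin (chromosome 4, 137862237 to 137965229), rose in WT mice. It had 40.005, 32.3, 37.9 and 62.9 RPKM in WT-ST, against 19.5, 23.5, 15.4 and 15.6 RPKM in WT-NS, so the groups did not overlap and the log2 fold change was 1.16 ± 0.23 (adjusted p = 0.00226). In Cko-ST it had 49.2, 51.2, 30.7 and 36.7 RPKM, against 27.0, 24.6, 22.1 and 30.6 RPKM in Cko-NS. These groups also lay apart, by 0.0771 RPKM between the nearest libraries, and the log2 fold change of 0.64 ± 0.23 did not pass the test (adjusted p = 0.0649). It passed under median-of-ratios scaling (adjusted p = 0.0204), quantile normalisation (adjusted p = 0.0366), a stricter filter on low values (adjusted p = 0.0484), without Cko-ST 3 (adjusted p = 0.0353), without both libraries labelled male (adjusted p = 0.0327) and without Cko-NS 4 and Cko-ST 3 (adjusted p = 0.0312).

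Ednrb, the endothelin receptor that clears the peptide (chromosome 14, 103814625 to 103844402, minus strand), did not pass the test for stroke in either genotype. It had 15.8, 17.1, 21.2 and 11.8 RPKM in WT-ST, against 21.2, 14.5, 16.4 and 17.6 RPKM in WT-NS (log2 fold change -0.09, 95% interval -0.65 to 0.47). In Cko-ST it had 31.5, 20.0, 43.4 and 42.0 RPKM, against 31.9, 20.6, 25.6 and 15.5 RPKM in Cko-NS (0.52, interval -0.04 to 1.08, adjusted p = 0.208). The ST and NS libraries overlapped in both genotypes, and Cko-ST 2 was the only Cko-ST library below WT-ST 3, the highest of WT-ST. Astrocytes also express Ednrb: 6 of 6 astrocyte markers were in the table and summed to 0.212 to 2.92 RPKM in Cko-ST, 1.73 to 20.3 in Cko-NS, 1.39 to 10.4 in WT-ST and 1.23 to 8.66 in WT-NS, and the part of these cells in the Ednrb values was not tested. Of these markers, Slc1a3 averaged 0.793 RPKM in Cko-ST, 4.21 in Cko-NS, 3.08 in WT-ST and 1.999 in WT-NS, and Aqp4 averaged 0.0642, 0.0383, 0.00256 and 0.0730 RPKM in the same groups.

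The endothelin list held 11 further genes, of which 4 passed the filter on low values. In WT mice 1 rose and 1 fell, where 8.47% of all genes rose and 4.84% fell (median log2 fold change of the list 0.61, against 0.01 over all genes). In Cko mice 0 rose and 1 fell, where 6.44% of all genes rose and 8.72% fell (median -0.19, against -0.13). Edn3, another endothelin peptide gene, fell to 2.14 ± 1.01 RPKM in WT-ST, against 12.5 ± 6.57 RPKM in WT-NS (log2 fold change -1.98 ± 0.52, adjusted p = 0.0158). It fell likewise to 2.21 ± 2.90 RPKM in Cko-ST, against 8.92 ± 3.92 RPKM in Cko-NS (-1.86 ± 0.52, adjusted p = 0.0215). Ace, which converts angiotensin and degrades bradykinin, rose to 5.99 ± 4.08 RPKM in WT-ST, against 1.30 ± 0.338 RPKM in WT-NS (1.45 ± 0.45, adjusted p = 0.0395). The Edn3 call was lost without WT-NS 2 or WT-NS 4 in WT mice and without any of 6 of the 8 libraries in Cko mice (all but Cko-ST 3 and Cko-NS 1; adjusted p up to 0.116 over all alternatives), and the Ace call without any of 6 of the 8 WT libraries (all but WT-ST 2 and WT-ST 3; adjusted p up to 0.129). The muscle receptor gene Ednra was among the 7 genes too low to test.

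Nos3, the endothelial nitric oxide synthase (chromosome 5, 24364810 to 24384474, plus strand), had 25.2, 25.7, 28.6 and 50.7 RPKM in WT-ST, against 6.50, 13.2, 13.8 and 7.997 RPKM in WT-NS. All WT-ST libraries were higher than all WT-NS libraries, WT-ST 4 by the widest margin, and Nos3 rose by a log2 fold change of 1.56 ± 0.29 (2.95-fold, adjusted p = 0.00144). In Cko-ST it had 25.6, 35.2, 36.7 and 55.5 RPKM, against 23.2, 23.8, 38.2 and 28.4 RPKM in Cko-NS, and these groups overlapped (0.39 ± 0.29, adjusted p = 0.392). Between the NS hemispheres it was the only member to pass, higher in all 4 Cko-NS libraries than in all 4 WT-NS libraries (1.40 ± 0.29, 2.64-fold, adjusted p = 0.0460), where 0.315% of all genes passed, 0.224% upwards and 0.0916% downwards. This call was lost in 12 of 19 alternatives, among them median-of-ratios scaling (adjusted p = 0.0787), no filter on low values (adjusted p = 0.1) and a fit of only these 2 groups (adjusted p = 0.108). It was also lost when WT-NS 1, WT-NS 4 or any of the Cko-NS libraries was left out (adjusted p of 0.048 to 0.147 over the 8 single omissions), and without both Cko-NS 4 and Cko-ST 3 (adjusted p = 0.0753). The log2 difference stayed between 1.22 and 1.55 over the single omissions.

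Every Nos3 value in the stroke libraries carried a limit set by its neighbour. The last 294 bases of Nos3 (chr5:24384181-24384474) overlap the 3' end of Atg9b, an autophagy gene on the opposite strand at chromosome 5, 24384181 to 24392143. Libraries of 3' ends draw their reads from there, and whether reads were counted by strand is not given in the sources used here, so reads of the pair cannot be told apart. The ratio of Nos3 to Atg9b RPKM was 1.16 to 1.69 (median 1.29) in the 16 stroke libraries, in which Atg9b itself spanned 5.06 to 47.9 RPKM. It was 5.99 to 10.5 (median 8.37) in the 5 total-RNA libraries. Atg9b had a log2 fold change of 1.52 ± 0.30 in WT-ST against WT-NS (adjusted p = 0.00241), and of 1.27 ± 0.30 in Cko-NS against WT-NS (adjusted p = 0.0656).

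**Figure D3:**
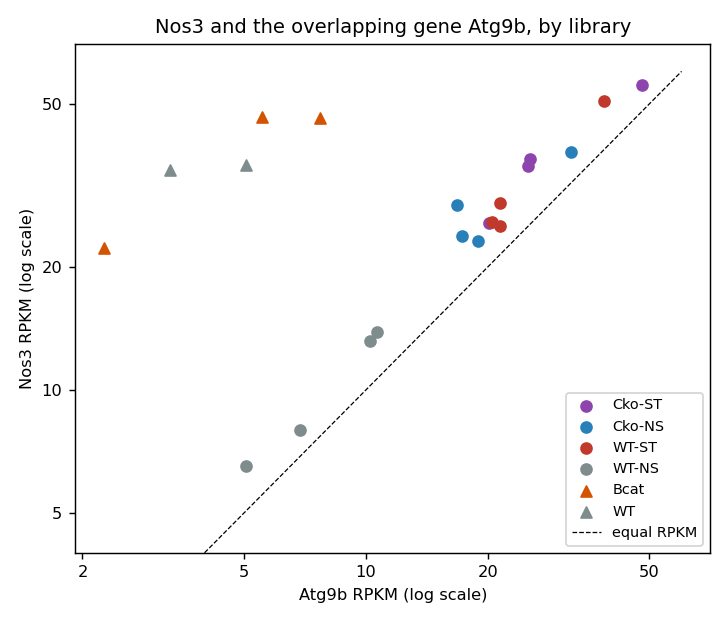
Nos3 RPKM (y axis) against Atg9b RPKM (x axis), both on log scales, in the 16 stroke libraries (circles) and the 5 beta-catenin libraries (triangles); the dashed line marks equal RPKM. The stroke libraries follow a single band just above the line, with ratios of 1.16 to 1.69, and the beta-catenin libraries lie apart from it at 5.99 to 10.5.

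The nitric oxide list held 21 further genes, of which 15 were tested. In WT mice 1 rose and 2 fell, with a median log2 fold change of -0.30 against 0.01 over all genes, and in Cko mice 2 rose and 3 fell, with a median of -0.21 against -0.13, where 13.3% and 15.2% of all genes passed in WT and Cko mice. Ddah1, which degrades an endogenous inhibitor of nitric oxide synthases, rose to 102 ± 16.7 RPKM in WT-ST, against 35.6 ± 6.85 RPKM in WT-NS (1.498 ± 0.24, adjusted p = 3.60e-04), and to 119.8 ± 30.6 RPKM in Cko-ST, against 43.4 ± 16.2 RPKM in Cko-NS (1.48 ± 0.24, adjusted p = 3.65e-04). Nostrin, which binds Nos3 and takes part in its traffic inside the cell, fell to 61.6 ± 19.9 RPKM in WT-ST, against 166 ± 20.1 RPKM in WT-NS (-1.47 ± 0.33, adjusted p = 0.00541), and to 49.3 ± 31.7 RPKM in Cko-ST, against 168 ± 54.0 RPKM in Cko-NS (-1.85 ± 0.33, adjusted p = 8.50e-04). Slc7a1, a transporter of arginine, the substrate of Nos3, also fell in both genotypes (log2 fold changes of -1.45 ± 0.17 and -1.04 ± 0.17 in WT and Cko mice). Hsp90aa1, a chaperone of Nos3, passed upwards in Cko mice (0.87 ± 0.29, adjusted p = 0.0498) and missed the threshold in WT mice (0.82 ± 0.29, adjusted p = 0.0673). Prkg1, a kinase activated by cyclic GMP, passed downwards in Cko mice (-1.91 ± 0.57, adjusted p = 0.0298) and did not pass in WT mice (-0.79 ± 0.57, adjusted p = 0.410). Neither gene passed the interaction test. The Hsp90aa1 call was lost in 12 of 19 alternatives, among them those without Cko-ST 1, 2 or 4 or Cko-NS 1, 2 or 3 (adjusted p up to 0.155), and the Prkg1 call without Cko-ST 2, 3 or 4 or Cko-NS 4 (adjusted p up to 0.239 over all alternatives). Without both libraries labelled male, Hsp90aa1 was at 0.81 (adjusted p = 0.13) and Prkg1 at -1.32 (adjusted p = 0.239). Without Cko-NS 4 and Cko-ST 3, Prkg1 was at -1.46 (adjusted p = 0.137). The calls of Ddah1, Nostrin and Slc7a1 held in all 19 alternatives in both genotypes. Prkg1 is also expressed by mural cells, whose 8 markers, all in the table, summed to 14.7 to 103 RPKM in Cko-ST, 23.3 to 32.5 in Cko-NS, 11.2 to 48.6 in WT-ST and 45.2 to 67.0 in WT-NS, with Cnn1 at 0 in Cko-ST, Cko-NS and WT-ST and Kcnj8 at 0 in WT-ST; their part in the result was not tested.

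Adm, the precursor of the dilator peptide adrenomedullin (chromosome 7, 110627661 to 110629820, plus strand), rose in Cko mice. It had 378, 519.9, 618 and 429 RPKM in Cko-ST, against 161, 293, 311 and 138 RPKM in Cko-NS, with no overlap (log2 fold change 1.17 ± 0.32, 2.25-fold, adjusted p = 0.0176). The call was lost without Cko-NS 1 (adjusted p = 0.0546), without Cko-NS 4 (adjusted p = 0.0571), without Cko-NS 4 and Cko-ST 3 (0.84, adjusted p = 0.120), without both libraries labelled male (adjusted p = 0.104), without Cko-NS 4 and Cko-ST 4 (adjusted p = 0.0751) and with no filter on low values (adjusted p = 0.0542). In WT-ST it had 244, 244, 336 and 383 RPKM, against 73.5, 196, 189 and 203 RPKM in WT-NS. These groups did not overlap either, WT-NS 1 was far below the others, and the log2 fold change of 0.94 ± 0.32 (interval 0.28 to 1.60) missed the threshold (adjusted p = 0.0557). Over the 19 alternatives it passed with a stricter filter on low values (adjusted p = 0.0406), without Cko-NS 4 and Cko-ST 4 (adjusted p = 0.0454), without Cko-NS 4 and Cko-ST 3 (adjusted p = 0.0441) and with a replicate block (adjusted p = 0.00826).

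Calcrl, the receptor chain that binds adrenomedullin (chromosome 2, 84330626 to 84425411, minus strand), and Ramp2, the partner that gives the chain its preference for this peptide (chromosome 11, 101246028 to 101259546, plus strand), moved in opposite directions in Cko mice. Calcrl rose to 312, 346, 190.0 and 347 RPKM in Cko-ST, against 101, 196, 139 and 201 RPKM in Cko-NS. Cko-ST 3 lay inside the Cko-NS range and the other 3 above it (log2 fold change 0.92 ± 0.22, 1.89-fold, adjusted p = 0.00746; 1.25, adjusted p = 4.82e-04, without Cko-NS 4 and Cko-ST 3). In WT-ST it had 305, 333, 340.2 and 251 RPKM, against 275, 261, 254 and 261 RPKM in WT-NS, with WT-ST 4 below all WT-NS libraries (0.22, interval -0.24 to 0.67, adjusted p = 0.577).

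Ramp2 fell to 80.1, 134, 112 and 197 RPKM in Cko-ST, against 215, 275, 290.3 and 298 RPKM in Cko-NS. The groups did not overlap, and the log2 fold change was -1.10 ± 0.25 (0.466-fold, adjusted p = 0.00665). In WT-ST it had 162, 145, 80.2 and 179 RPKM, against 172, 236, 201 and 196 RPKM in WT-NS; only WT-ST 4 reached into the WT-NS range, and the log2 fold change of -0.56 ± 0.25 (interval -1.09 to -0.02) did not pass (adjusted p = 0.168). The annotated span of Ramp2 overlaps Vps25 on the same strand, which averaged 6.77 to 11.2 RPKM in the stroke groups.

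The adrenomedullin list held 11 further names, of which 5 were tested. Pam, the enzyme that amidates adrenomedullin and other peptides into active form, was the only one past the threshold, and the list's median log2 fold change was -0.02 in WT mice and -0.18 in Cko mice, against 0.01 and -0.13 over all genes, of which 13.3% and 15.2% passed. Pam fell to 27.0 ± 5.53 RPKM in WT-ST, against 43.3 ± 5.64 RPKM in WT-NS (-0.67 ± 0.21, adjusted p = 0.0424), and to 21.7 ± 3.81 RPKM in Cko-ST, against 41.1 ± 9.71 RPKM in Cko-NS (-0.87 ± 0.21, adjusted p = 0.00870). The call in WT mice was lost without WT-ST 1, 2 or 3 or WT-NS 1, 2 or 4 (adjusted p up to 0.109), and the call in Cko mice without both libraries labelled male (adjusted p = 0.0834). The other receptor partner tested, Ramp3, and the decoy receptor Ackr3 did not pass in either genotype.

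Ptgs2, the inducible cyclooxygenase (chromosome 1, 150100031 to 150108227, plus strand), rose in both genotypes. It had 102, 105, 109 and 114 RPKM in WT-ST, against 39.0, 22.3, 17.0 and 19.7 RPKM in WT-NS (log2 fold change 2.16 ± 0.34, 4.47-fold, adjusted p = 3.37e-04). It had 71.5, 94.3, 123 and 185 RPKM in Cko-ST, against 10.1, 21.8, 25.3 and 38.1 RPKM in Cko-NS (2.31 ± 0.34, 4.97-fold, adjusted p = 1.71e-04). Every ST library was above every NS library, and the WT-ST libraries were close together (SD 5.34 RPKM) where those of Cko-ST were spread (SD 49.0 RPKM). The 5 markers of venous endothelium, none at 0, summed to 361 to 1044 RPKM in Cko-ST, 145 to 337 in Cko-NS, 229 to 504 in WT-ST and 86.1 to 93.6 in WT-NS. Lcn2 made up most of the mean sum in Cko-ST, Cko-NS and WT-ST, and averaged 461 RPKM in Cko-ST against 126 RPKM in Cko-NS and 204 RPKM in WT-ST against 30.7 RPKM in WT-NS. Nr2f2 and Ackr1 also averaged higher in ST than in NS of both genotypes, whereas Vwf averaged lower in ST (7.78 RPKM in Cko-ST against 10.3 RPKM in Cko-NS, and 8.35 RPKM in WT-ST against 8.62 RPKM in WT-NS). Slc38a5 averaged higher in WT-ST (15.1 RPKM, against 6.23 RPKM in WT-NS) and lower in Cko-ST (6.48 RPKM, against 8.19 RPKM in Cko-NS). The 5 arterial markers, none at 0, summed to 36.3 to 47.0 RPKM in Cko-ST, 34.2 to 67.6 in Cko-NS, 28.7 to 46.9 in WT-ST and 42.4 to 86.1 in WT-NS, and the part of either vessel type in the results for Ptgs2 and the other members was not tested. Leukocytes can also express Ptgs2. The 7 of 8 leukocyte markers in the table summed to 4.33 to 24.0 RPKM in Cko-ST, 10.5 to 90.1 in Cko-NS, 2.23 to 106 in WT-ST and 0 to 12.5 in WT-NS. Cd3e was at 0 in each of the 4 stroke groups and Cd79a at 0 in WT-ST and WT-NS. The part of leukocytes in the result was not tested.

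Ptgs1, the constitutive cyclooxygenase (chromosome 2, 36230426 to 36252272, plus strand), was close to the detection limit in the stroke libraries. It had 0.253, 0.504, 0.904 and 0 RPKM in WT-ST, against 0.811, 2.01, 0.327 and 0.311 RPKM in WT-NS, and 0.480, 0.512, 0.188 and 0.0531 RPKM in Cko-ST, against 0.288, 1.51, 0.632 and 0.468 RPKM in Cko-NS. With the depth estimated per library these values came to whole reads within 0.1 read in all 16 libraries, with 0 to 44.1 reads each and 244 in all. The groups overlapped, and an exact two-sided permutation test, in which 70 splits allow a p no lower than 0.0286, gave p = 0.4 in WT mice and p = 0.2 in Cko mice for differences of -0.35 and -0.37 in mean log2(RPKM + 1). For the genotype comparisons the exact permutation p was 0.8 in NS and 0.686 in ST. Microglia also express Ptgs1. The 8 microglia and macrophage markers summed to 3.82 to 8.39 RPKM in Cko-ST, 8.11 to 20.6 in Cko-NS, 2.29 to 16.7 in WT-ST and 1.43 to 84.0 in WT-NS. Tmem119 was at 0 in both ST groups. The top of the WT-NS range was mostly Aif1, which reached 76.7 RPKM, while no other marker was above 7.79 RPKM in WT-NS. The part of these cells in the Ptgs1 values was not tested.

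The prostaglandin list held 20 further genes, of which 7 were tested. In WT mice 1 rose and 2 fell, where 13.3% of all genes passed (median log2 fold change -0.62, against 0.01 over all genes). In Cko mice 2 rose and 1 fell, where 15.2% of all genes passed (median -0.33, against -0.13 over all genes). Ptges, the inducible synthase of prostaglandin E2, rose to 11.3 ± 5.01 RPKM in Cko-ST, against 4.38 ± 1.55 RPKM in Cko-NS (1.16 ± 0.34, adjusted p = 0.0267), and averaged 8.39 ± 2.81 RPKM in WT-ST and 6.01 ± 2.33 RPKM in WT-NS, where it did not pass. Ptges3, also known as the chaperone p23, rose in both genotypes (log2 fold change 0.69 ± 0.14 in WT mice and 0.52 ± 0.14 in Cko mice). Abcc4, which exports prostaglandins, fell to 23.1 ± 5.06 RPKM in WT-ST, against 57.5 ± 9.21 RPKM in WT-NS (-1.29 ± 0.22, adjusted p = 7.92e-04), and to 21.6 ± 7.84 RPKM in Cko-ST, against 79.1 ± 9.24 RPKM in Cko-NS (-1.88 ± 0.22, adjusted p = 2.66e-05). Ptgds, the synthase of prostaglandin D2, fell to 75.3 ± 61.6 RPKM in WT-ST, against 336 ± 142 RPKM in WT-NS (-2.55 ± 0.83, adjusted p = 0.0487). It averaged 62.8 ± 54.5 RPKM in Cko-ST and 289 ± 266 RPKM in Cko-NS (-1.94 ± 0.83, adjusted p = 0.125), and the interaction did not pass (adjusted p = 0.936). Oligodendrocytes express Ptgds strongly, and their 5 markers, all above 0, summed to 28.0 to 361 RPKM in WT-ST, 182 to 983 in WT-NS, 16.7 to 260 in Cko-ST and 41.4 to 504 in Cko-NS; their part in these values was not tested. Single omissions ended the call of Ptges without Cko-ST 2 or 4 or Cko-NS 1 (adjusted p up to 0.221 over all alternatives), that of Ptges3 in Cko mice without Cko-ST 1 or 2 or Cko-NS 1 (adjusted p up to 0.0743), and that of Ptgds without WT-ST 2 or 3 or any WT-NS library (adjusted p up to 0.149). Without both libraries labelled male, Ptges was at 0.805 (adjusted p = 0.221). The calls of Abcc4 in both genotypes held in all 19 alternatives. Of the synthases downstream of the cyclooxygenases, that of prostacyclin, Ptgis, did not pass in either genotype, and that of thromboxane, Tbxas1, was too low to test.

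**Figure D4:**
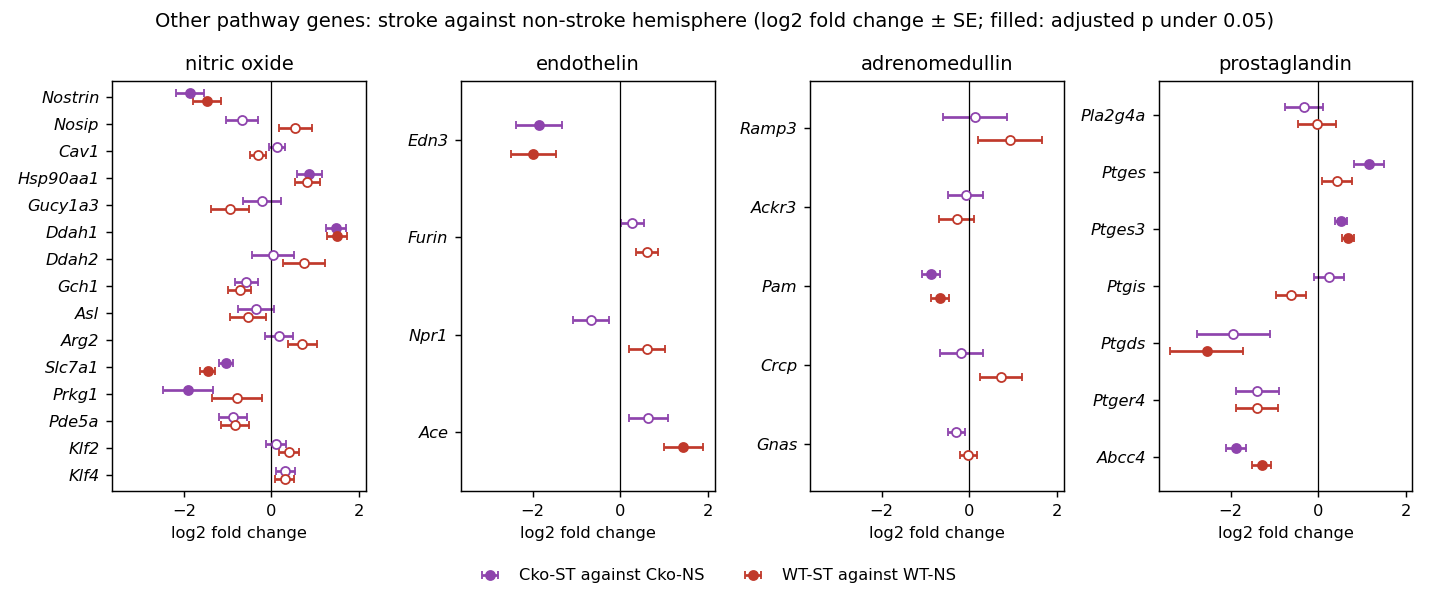
Log2 fold changes with SE (x axis) of the other genes tested in each of the 4 pathway lists, for Cko-ST against Cko-NS and WT-ST against WT-NS. Filled points passed an adjusted p of 0.05. Ddah1 lies to the right of 0 and Nostrin, Slc7a1, Edn3, Pam and Abcc4 to the left in both genotypes.

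The genotypes were compared within each hemisphere, which asks whether these genes differ where Gpr124 was floxed over a null allele. In the NS hemispheres 1 of 8 members passed (Nos3, above, against 0.315% of all genes), and the median log2 difference of the members was 0.40, against 0.11 over all genes, a general shift that went to -0.00 under median-of-ratios scaling, with 14 genes higher and 15 lower against 22 higher and 9 lower in the deposited scaling (18 and 14 under quantile normalisation). Groups without overlap were found for 8.7% of all genes here, and for 2 members, Nos3 with Cko-NS higher (6.67% of genes) and Calcrl with Cko-NS lower (2.04% of genes). Calcrl averaged 159 ± 47.7 RPKM in Cko-NS and 263 ± 8.60 RPKM in WT-NS (SD, n = 4 each), a log2 difference of -0.77 ± 0.22 that did not pass (adjusted p = 0.110). It passed only in the fit without Cko-NS 4 and Cko-ST 3 (-0.90, adjusted p = 0.0419). Mural cells express Calcrl at some level too, and their part was not tested. The summed mural markers, given above for Prkg1, were lower in every Cko-NS library than in every WT-NS library, and most of that sum was Rgs5 (mean 21.7 RPKM in Cko-NS and 49.0 RPKM in WT-NS). Acta2, Abcc9, Myh11 and Cnn1 also averaged lower in Cko-NS, and the other markers averaged higher. Tagln averaged 3.08 RPKM in Cko-NS and 2.65 RPKM in WT-NS, Pdgfrb averaged 0.210 RPKM in Cko-NS and 0.123 RPKM in WT-NS, and Kcnj8 averaged 0.114 RPKM in Cko-NS and 0.0407 RPKM in WT-NS.

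In the ST hemispheres 0 of 8 members and 0% of all genes passed between Cko-ST and WT-ST (limma; 476 genes at an unadjusted p under 0.05, lowest adjusted p = 0.288), and no member was without overlap, against 3.33% of all genes (1.47% with Cko-ST higher and 1.86% with Cko-ST lower). Ednrb had the widest difference among the members, with 34.2 ± 10.9 RPKM in Cko-ST and 16.5 ± 3.90 RPKM in WT-ST (log2 difference 0.98, interval 0.42 to 1.54, adjusted p = 0.717). Adm followed with 486 ± 105 RPKM in Cko-ST and 301 ± 69.4 RPKM in WT-ST (0.69, interval 0.03 to 1.35, adjusted p = 0.993). Edn1 and Ptgs2 differed by 0.15 (interval -0.37 to 0.67) and 0.05 (interval -0.66 to 0.76), which leaves room for differences in either direction.

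The stroke response itself was compared between the genotypes by the interaction, for which 0 of 8 members and 0% of all genes passed (limma; 691 genes at an unadjusted p under 0.05, lowest adjusted p = 0.446). Nos3 had the most negative member value (-1.17 ± 0.41, adjusted p = 0.681), with its overlapping neighbour Atg9b at -1.09 ± 0.43, and Calcrl the most positive (0.70 ± 0.31, adjusted p = 0.681). The calls of Nos3 and Ece1 in WT mice and of Adm, Calcrl and Ramp2 in Cko mice are therefore not shown to differ between genotypes. The values for Adm (0.23), Ramp2 (-0.55) and Ece1 (-0.51) were accompanied by adjusted p of 0.940, 0.785 and 0.779.

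In the beta-catenin experiment the question was whether stabilised beta-catenin in endothelial cells goes with a change of these genes without stroke. Axin2, a target of beta-catenin, averaged 48.4 ± 5.42 RPKM in Bcat (SD, n = 3) and 27.3 ± 1.45 RPKM in WT (n = 2), a log2 fold change of 0.80 ± 0.26 that did not pass (adjusted p = 0.901). Of the 9 members, all tested here, 0 passed, as did 0% of 11239 genes (limma; 590 genes at an unadjusted p under 0.05, lowest adjusted p = 0.217). Groups without overlap were found for 20.4% of all genes and for 1 member, Ramp2, with Bcat lower (8.66% of genes had all Bcat libraries higher and 11.7% had all lower).

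Ramp2 had 145, 238 and 223 RPKM in Bcat, against 339.7 and 279 RPKM in WT (log2 fold change -0.64 ± 0.27, interval -1.24 to -0.03, adjusted p = 0.916, limma). Edn1 had 104, 73.4 and 77.1 RPKM in Bcat, against 77.6 and 51.8 RPKM in WT (0.40 ± 0.28), and only Bcat 1 was above both WT libraries. Its converting enzyme Ece1 had 119, 116 and 153 RPKM in Bcat, against 145 and 175 RPKM in WT (-0.31 ± 0.24). Bcat 3 lay between the WT libraries and the other Bcat libraries below them.

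The remaining members overlapped between these groups. Ednrb had 2.88, 0 and 1.12 RPKM in Bcat, against 3.98 and 2.74 RPKM in WT (-1.10 ± 0.75). Nos3 had 22.2, 46.2 and 46.4 RPKM in Bcat, against 34.5 and 35.4 RPKM in WT (0.05 ± 0.36), so the Bcat libraries lay on either side of WT. Adm had 17.9, 5.01 and 10.2 RPKM in Bcat, against 8.29 and 4.24 RPKM in WT (0.63 ± 0.57), the highest being Bcat 1. Calcrl, its receptor chain, had 65.3, 77.8 and 35.7 RPKM in Bcat, against 58.0 and 80.5 RPKM in WT (-0.27 ± 0.35). Ptgs1 had 0.299, 0.341 and 2.69 RPKM in Bcat, against 2.21 and 0.416 RPKM in WT (-0.20 ± 0.79), with 1 high library in each group. Ptgs2 had 7.04, 9.44 and 24.0 RPKM in Bcat, against 1.95 and 8.90 RPKM in WT (1.24 ± 0.67, interval -0.26 to 2.75), and Bcat 1 lay between the WT libraries.

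**Figure D5:**
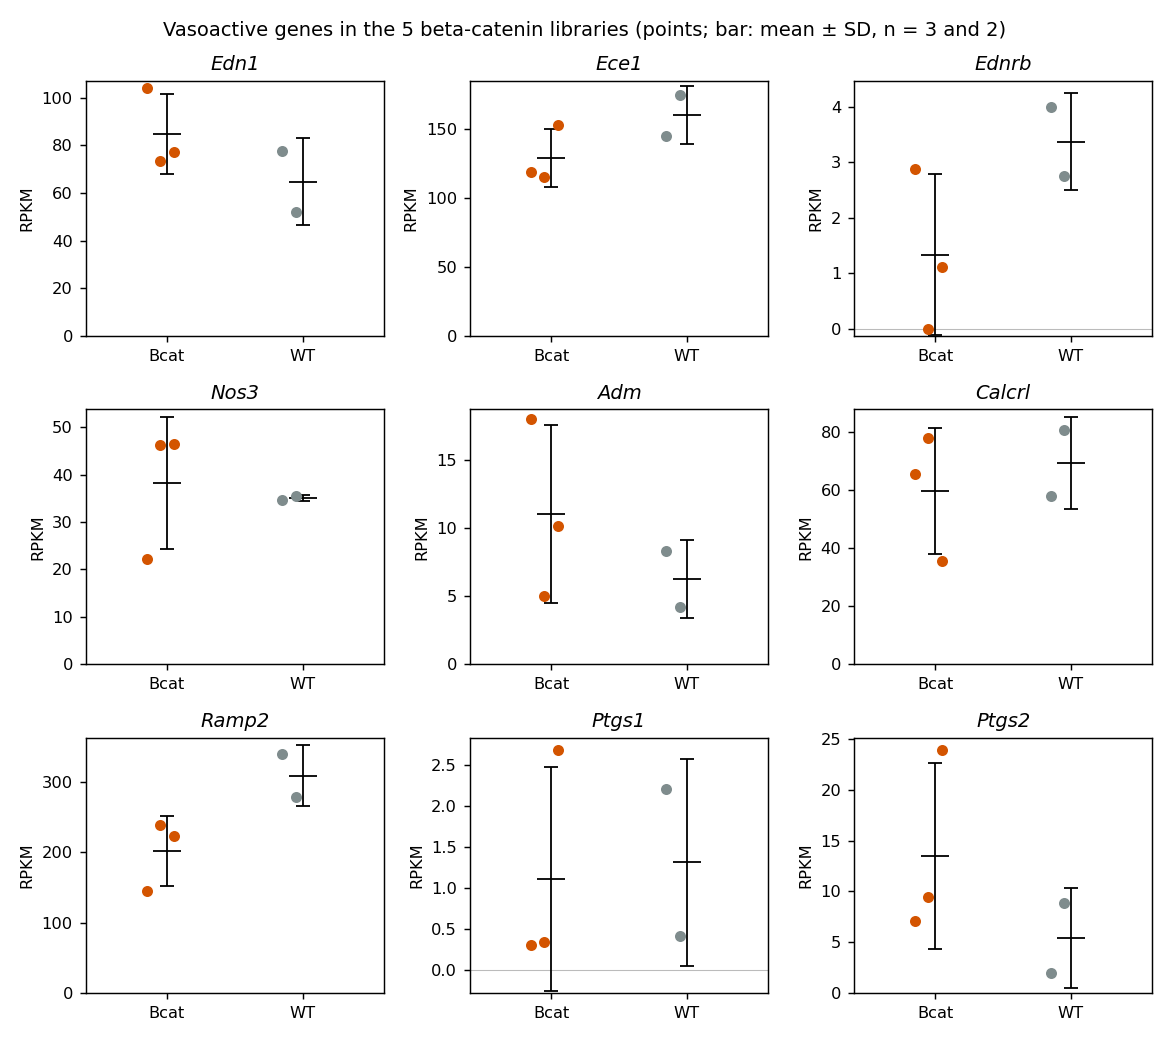
RPKM of the 9 vasoactive genes in the 3 Bcat and 2 WT libraries of the beta-catenin experiment (points), with the mean and SD as bars; the scale begins below 0 where a bar does. For Ramp2 all Bcat libraries lie below both WT libraries, and for the other 8 genes the groups overlap.

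Patterns over the 16 stroke libraries were compared by the root mean square difference of centred log2(RPKM + 1) values, where a small value means a close pattern. The nearest of 5578 genes were sought for each member past the threshold in a stroke comparison, and so not for Ednrb and Ptgs1. For Edn1 these were Cd93 (0.265), Msn (0.292) and Fkbp1a (0.304), against a median of 1.13 over all candidates. For Ptgs2 they were Ackr1 (0.393), a chemokine-binding protein of venular endothelium, Anxa2 (0.437) and Tm4sf1 (0.44), against a median of 1.3. For Nos3 the nearest was its overlapping neighbour Atg9b (0.132), ahead of Polr2b (0.359) and Igfbp7 (0.366), against a median of 0.903. For the endothelin-converting enzyme Ece1 the 3 nearest were Midn, Pitpnc1 and Wdr1 (0.235 to 0.243), and for Adm they were Ptpn12, Rell1 and Tubb2a (0.389 to 0.412). The receptor chain Calcrl was nearest to Tram1, Fem1b and Sh3bgrl (0.236 to 0.27), and Ramp2 to Ubxn6, Crip2 and Hsd17b11 (0.22 to 0.232). These distances describe the 16 libraries, which share the group differences described above.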

How the data were processed

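RNA was sequenced from sorted brain endothelial cells in 16 libraries of a stroke experiment and 5 of a beta-catenin experiment. The authors deposited RPKM values; edgeR and build mm10 appear in the submitters' processing notes. No source used here gives the aligner, annotation, gene lengths or strand setting. Of 24260 rows, 54 that shared 23 names were left out, 27 with a calendar date for a name were not tested, and 8 columns that match no sample described were not used. Libraries were grouped by their titles. Nothing in the labels ties each library to an animal of its own, and the p-values therefore reflect only the variation among these samples, which may be technical.

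Tests were two-sided in limma 3.58.1 (R 4.3.3; eBayes with a mean-variance trend) on log2(RPKM + 1), a scale that understates the changes of low genes, for genes with a mean of at least 1 RPKM, with Benjamini-Hochberg adjustment over all genes and a threshold of 0.05. A single fit covered the 4 stroke groups and another the 5 other libraries; the code was tested on simulated data. Fold changes and intervals (95%) are on this scale. Depth was estimated in the stroke libraries from low values that fall on whole reads (24.7 to 31.6% of them did within the tolerance used); in the other 5 only 12.7 to 16.1% did, and their depth is unknown. The main fits used no pairing. Replicate numbers were taken to pair libraries only in Cko mice, where 8 of 8 libraries deviated most like their own number (r of 0.1003 to 0.2131 in 4 pairs). In WT mice same-numbered libraries also deviated together, more weakly (r of 0.0113 to 0.1298, 6 of 8 libraries), and pairing was left undecided. The fit with a replicate block changed no call of a member in Cko mice and added Adm in WT mice.

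Alternatives changed the pseudocount (0.1), the filter (none, or 5 RPKM), the scaling, the trend, the block, the groups in the fit and the libraries. Genes named were the 9 members and up to 3 pathway genes past the threshold with the lowest p per list and comparison. For each member called in a stroke comparison, the 3 genes nearest in pattern among those with a mean of at least 5 RPKM were added. Atg9b, Vps25, Hsp90aa1, Prkg1 and the pathway genes named without a call were named after their values were seen, and the alternatives for pathway genes were added then. The members and gene lists were chosen with earlier results of these data known. Annotation came from GENCODE on GRCm38 (mm10) and promoters from RefSeq (GRCm38.p6).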

Additional observations from a re-analysis of the deposited data

Results flagged for a closer look

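Of 36 sets of 4 libraries (9 members in 4 stroke groups), 2 held a library far from the rest by Dixon's test, which by chance marks about 1 in 20 such sets. Nos3 stood at 50.7 RPKM in WT-ST 4, against 25.2 to 28.6 RPKM in the other WT-ST libraries. With each library of the comparison left out in turn, WT-ST 4 included, the log2 fold change of Nos3 in WT mice was 1.33 to 1.71 and passed each time (adjusted p of 0.00176 to 0.0064). Adm stood at 73.5 RPKM in WT-NS 1, against 189 to 203 RPKM in the other WT-NS libraries. With each library left out in turn, the log2 fold change of Adm in WT mice was 0.59 to 1.08, with adjusted p of 0.0542 to 0.179.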

How the results depend on the processing

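Of the 10 calls of members in the stroke libraries, 8 held in all 19 alternatives; those of Adm in Cko mice (lost in 6 of 19) and of Nos3 between NS hemispheres (lost in 12 of 19) did not, and 0 reversed. Of the 20 stroke calls of Atg9b and other pathway genes, 10 held throughout and 0 reversed. Over the alternatives that left out 1 library, 993 to 1115 genes and 4 to 4 members passed in WT mice, 1044 to 1512 genes and 4 to 6 members in Cko mice, 1 to 41 genes and 0 to 1 members between NS hemispheres, and 0 to 8 genes between ST hemispheres. Between NS hemispheres, 31 genes passed, against 19 with no filter on low values, 84 with a filter of 5 RPKM, 12 without the trend, 60 with the replicate block, 75 without Cko-NS 4 and Cko-ST 4 and 2 in a fit of only these groups; 0 members passed with no filter, under median-of-ratios scaling or quantile normalisation, without the trend and in that fit. The cause was not tested. In the comparisons of genotypes within a hemisphere, and of Bcat with WT, the block matched libraries of different mice by number alone. Between NS hemispheres, 3 of 8 libraries deviated most like their own number. For WT mice the replicate block gave 1459 genes and 5 members, Adm included, against 1308 genes and 4 members. In Cko mice it gave 1573 genes, against 1490. Between ST hemispheres, in the interaction and between Bcat and WT it gave 0 genes, as without it. Same-numbered WT libraries also deviated together (r of 0.0113 to 0.1298, median 0.085, against a median of -0.018 for other pairs). Of these libraries, 6 of 8 deviated most like their own number, and pairing in WT mice was left undecided.

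Directions turned only for differences near 0 that did not pass. Without 1 library, the log2 value spanned -0.22 to 0.0492 for Ednrb in WT mice; -0.04 to 0.22 for Edn1 and -0.37 to 0.24 for Ptgs2 between NS hemispheres; -0.12 to 0.28 for Edn1, -0.15 to 0.16 for Ece1, -0.16 to 0.13 for Calcrl, -0.38 to 0.0841 for Ramp2 and -0.19 to 0.26 for Ptgs2 between ST hemispheres; -0.22 to 0.20 for Edn1 and -0.19 to 0.42 for Ptgs2 in the interaction; and -0.12 to 0.39 for Nos3, -0.50 to 0.0607 for Calcrl and -0.79 to 0.0612 for Ptgs1 between Bcat and WT. Between NS hemispheres Edn1 was at -0.038 under median-of-ratios scaling and -0.0423 in both fits without Cko-NS 4 and a Cko-ST library. Between ST hemispheres Ece1 was at 0.0077 under that scaling, 0.0236 without Cko-NS 4 and Cko-ST 4, 0.254 without both libraries labelled male and 0.107 without Cko-NS 4 and Cko-ST 3. Also between ST hemispheres, Ptgs2 was at -0.19 without Cko-NS 4 and Cko-ST 4 and -0.38 without both libraries labelled male, Calcrl at 0.106 without both libraries labelled male and 0.132 without Cko-NS 4 and Cko-ST 3, and Nos3 at -0.051 without both libraries labelled male. The interaction of Ptgs2 was -0.279 without both libraries labelled male, and that of Adm -0.102 without Cko-NS 4 and Cko-ST 3. With the replicate block, Nos3 was at -0.12 and Calcrl at 0.0607 between Bcat and WT. Limits are set by 4, 3 or 2 libraries a group, by Ptgs1 resting on few reads, and by the overlap of Nos3 with Atg9b. Annotated genes on the opposite strand, without values of their own here, also overlap Nos3, Edn1, Ece1, Ptgs1 and the whole span of Adm. As the strand setting is not given, their part in these values was not tested.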
